A study of Mus musculus with 8 samples.

Results

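The T cell receptor signalling genes described here are 36 genes chosen by name: the CD3 chains, the kinases and adaptors next to the receptor, costimulatory and adhesion receptors of T cells, exchange factors and other effectors, and the NFAT and calcineurin genes. Of these, 32 had a probe set with a single gene symbol, out of 12393 such genes on the arrays, and Lck, Cblb, Malt1 and Ubash3a are not analysed here. RNA from CD44hi (4 arrays) was compared with RNA from CD44lo (4 arrays), each a subpopulation purified from stable mouse T cell lymphoma lines. Both groups share the deficiency of Snf5, which the gene Smarcb1 encodes and which belongs to the chromatin remodeller SWI/SNF. CD44 itself is a hyaluronan receptor that is high on memory and activated T cells. The labels do not say how many lines were used, whether a line is a single clone, how Snf5 was removed, or which line each array came from. They do not say either that replicates came from separate cultures, so the p-values measure a spread that may be technical only.

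The T cell receptor has no enzyme of its own. Its CD3 chains carry tyrosine motifs that a Src family kinase phosphorylates, ZAP-70 binds them and phosphorylates the scaffold LAT and the adaptor SLP-76 (gene Lcp2), and these gather phospholipase C, Vav and Ras exchange factors. Calcium then frees NFAT transcription factors through the phosphatase calcineurin, diacylglycerol drives protein kinase C theta and Ras, and Csk, Cbl proteins and CD5 restrain the pathway.

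All levels below are log2 of the deposited intensity of the probe set with the highest mean for the gene. Probe sets differ in how strongly they bind, so the level of a gene is compared between arrays and not with that of another gene. A floor was taken from 27 probe sets for bacterial genes that lay between 3.27 and 5.86 on all 8 arrays. Of the 32 members 24 lay above that range on every array, 4 lay within it on every array (Cd5, Thy1, Txk and Rasgrp1), and 4 crossed its upper end (Cd2, Cd6, Prkcq and Grap2). A gene was called when limma gave an adjusted p under 0.05 (Benjamini-Hochberg, over all 12393 genes). In bulk RNA, fewer cells that express a gene and less RNA per cell cannot be told apart.

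**Figure D1:**
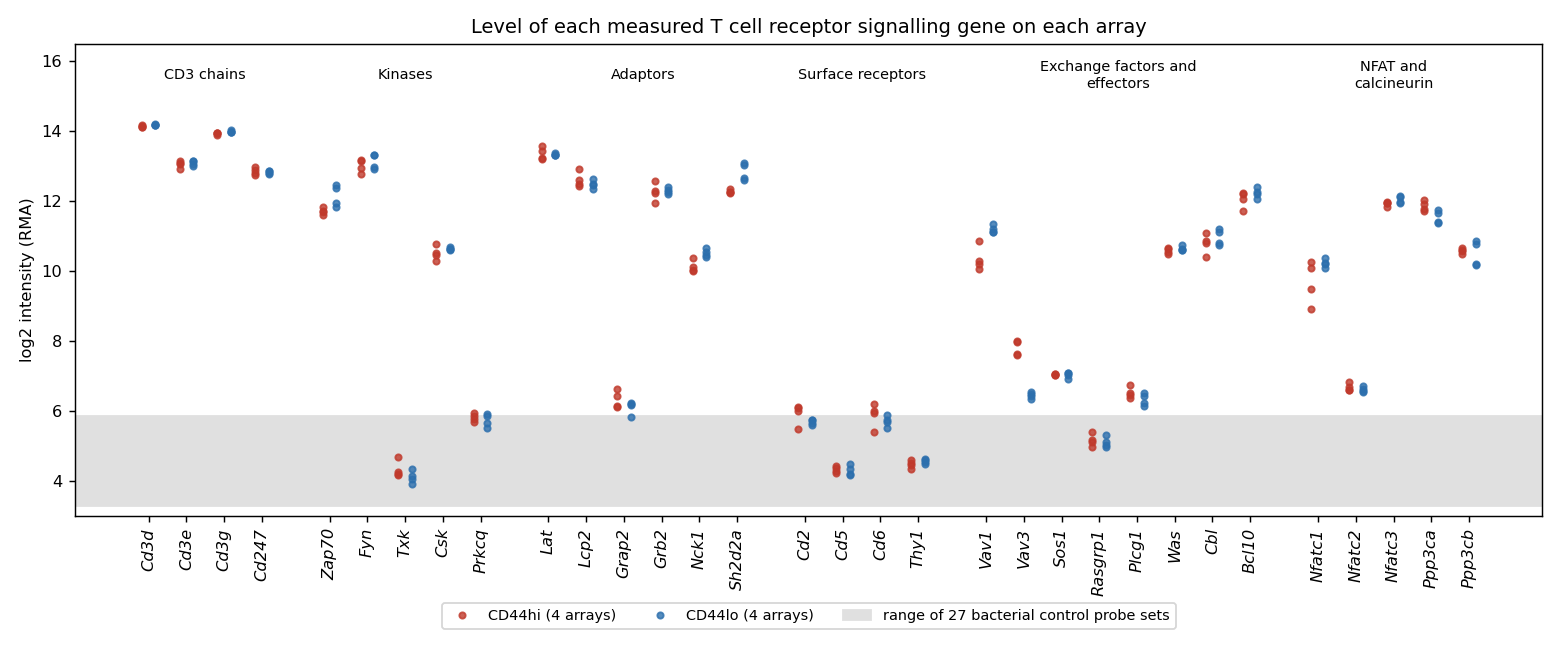
Log2 intensity (y axis) of each of the 32 measured genes on each array, with CD44hi arrays in red and to the left of the CD44lo arrays in blue; genes are grouped by role, and the grey band is the range of the bacterial control probe sets, 3.27 to 5.86. The 4 CD3 genes sit far above the band in both groups, and Cd5, Thy1, Txk and Rasgrp1 lie inside it.

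The arrays as a whole carried the following features beside every comparison. Cd44, the gene of the purification, was at 11.44 ± 0.28 in CD44hi and 5.55 ± 0.45 in CD44lo, as the labels have it. Array medians of intensity lay between 320.3 and 339.1 on the linear scale. As a measure of RNA quality, signal at the 3' end of Gapdh exceeded that at its 5' end by 0.76 to 0.88 (log2) in CD44hi and 0.65 to 0.73 in CD44lo (exact two-sided permutation p = 0.0286, n = 4 each, the smallest p that 70 assignments allow), and its part in the differences was not tested. The same measure for Actb was 0.47, 0.79, 0.53 and 0.71 in CD44hi, against 0.38, 0.61, 0.44 and 0.56 in CD44lo (exact permutation p = 0.229). It was higher on replicates 2 and 4 of each group. Of the T cell markers Cd3d, Cd3e, Cd3g, Cd247, Cd8a and Cd8b1 were far above the bacterial range, while Cd5 and Thy1 were within it. Summed intensities of the 9 measured T cell markers were 75650 to 78000 in CD44hi and 76810 to 79250 in CD44lo. Sums of 10 B cell genes were 344 to 439 in CD44hi, against 338 to 357 in CD44lo, and those of 7 natural killer genes 275 to 312 in CD44hi, against 268 to 315 in CD44lo. Sums of 8 myeloid genes were 479 to 1474 in CD44hi, against 512 to 1085 in CD44lo, and those of 6 stromal genes 262 to 322 in CD44hi, against 279 to 299 in CD44lo. Of these genes of other cell types, 8 of 10, 5 of 7, 6 of 8 and 5 of 6 stayed within the bacterial range on every array, among them Cd79a, Cd79b, Ncr1, Itgax and Col1a1, and 0 were called (limma; 1 B cell and 1 stromal gene had an unadjusted p under 0.05).

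The 4 CD3 genes were high in both subpopulations, with mean differences of at most 0.05 on the log2 scale for the probe sets of highest mean. Cd3d, which codes for CD3 delta, had 14.12, 14.16, 14.12 and 14.17 in CD44hi replicates 1 to 4, against 14.17, 14.17, 14.18 and 14.21 in CD44lo replicates 1 to 4. Cd3g, CD3 gamma, had 13.96, 13.96, 13.96 and 13.89 in CD44hi and 13.97, 13.99, 13.99 and 14.03 in CD44lo. For both genes every CD44hi array lay below every CD44lo array, though the nearest arrays were almost level, and the means differed by 0.04 and 0.05 on the log2 scale. Cd3e, CD3 epsilon, had 13.16, 13.08, 13.07 and 12.92 in CD44hi, against 13.16, 13.02, 13.15 and 13.06 in CD44lo. Cd247, the zeta chain that carries most of the signalling motifs, had 12.98, 12.82, 12.88 and 12.76 in CD44hi and 12.86, 12.78, 12.85 and 12.82 in CD44lo. The groups overlapped for these 2 genes. None of the 4 was called (limma adjusted p from 0.862 to 0.942), and the 95% intervals of their differences reached from -0.22 to 0.20. Further probe sets of Cd247 disagreed in sign, with differences of 0.06, 0.25 and -0.20. Their 95% intervals reached from -0.54 to 0.69, and none of them was called when all probe sets were fitted. In the mouse RefSeq table (assembly GRCm38.p6) Cd3g, Cd3d and Cd3e are direct neighbours on chromosome 9, while Cd247 lies elsewhere.

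The antigen-binding chains were looked at after their annotation was seen, since the constant-region genes are not analysed here. The probe set annotated to Trbv1, a receptor beta segment, had a mean of 14.03 ± 0.06 in CD44hi and 14.03 ± 0.03 in CD44lo (SD, 4 arrays a group). That annotated to Trbv13-2, another beta segment, was at 10.13 ± 0.15 in CD44hi and 10.32 ± 0.04 in CD44lo (exact permutation p = 0.0857). Of 5 probe sets annotated to the alpha segment Trav9d-3, the 3 brightest had means of 13.51, 13.38 and 13.45 in CD44hi and 13.51, 13.45 and 13.41 in CD44lo. On these 3 the array CD44hi replicate 4 was the lowest, at 13.02, 12.72 and 13.05, against 13.53 to 13.68 for the other CD44hi arrays. CD44lo replicate 4 was the lowest of its group too, at 13.29, 13.20 and 13.25. Probe sets of these segments can bind related receptor transcripts, so which segment they report is uncertain.

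Across the 32 members 1 gene rose in CD44hi and 2 fell, which is 9.38% of the members, against 3.81% of all genes tested (2.03% higher and 1.78% lower). Those shares rest on 3 members, and no test compared them. The gene that rose was Vav3, and those that fell were Vav1 and Sh2d2a. With the replicate number as a block, 1 member rose and 3 fell (12.5%), with Nck1 added, against 6.19% of all genes. The groups of 4 arrays did not overlap for 7 members (21.9%), namely these 4 with Cd3d, Cd3g and Zap70, against 10.3% of all genes. The difference was under 0.25 in size for 25 members, 16 were positive and 16 negative, and the median was -0.01, against -0.000059 over all genes. An unadjusted p under 0.05 was reached by 6 members, the 3 called and Zap70, Nck1 and Ppp3ca. The share of all genes under that unadjusted limit is not given here, so the 6 cannot be compared with it.

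**Figure D2:**
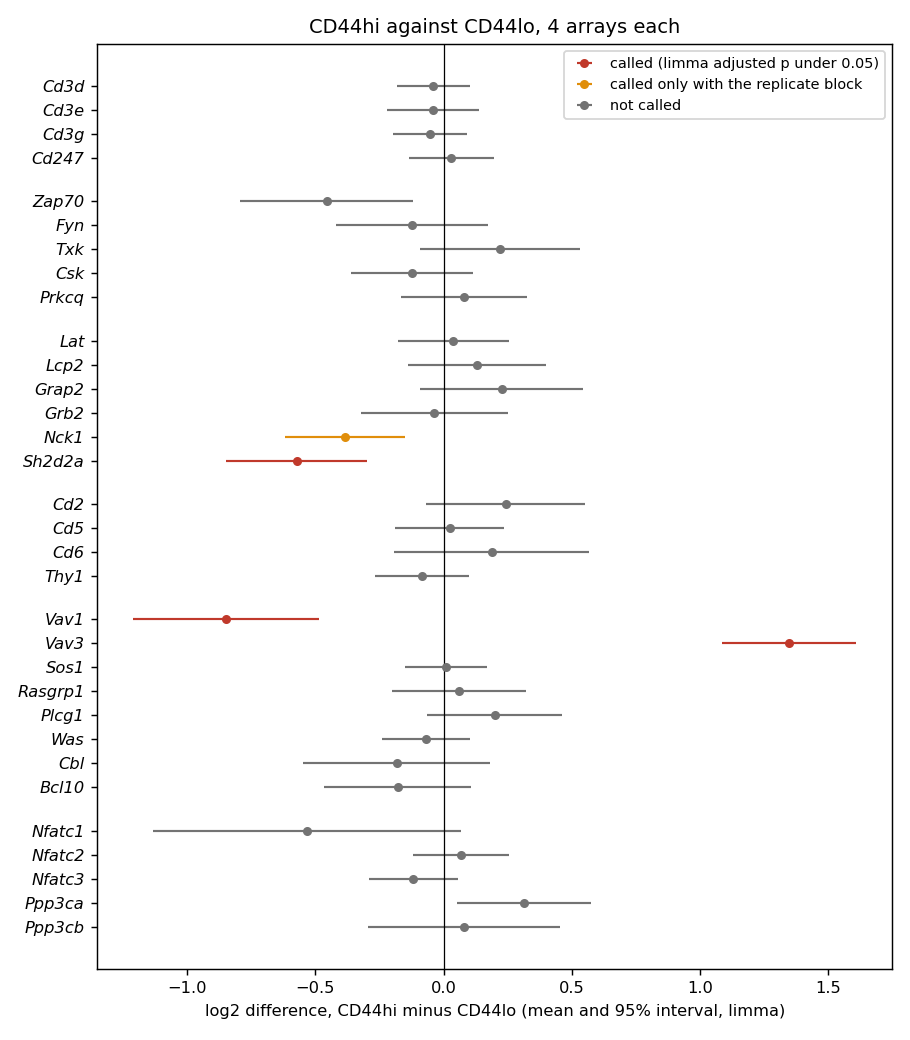
Difference in log2 intensity, CD44hi minus CD44lo, for each member (x axis), with the 95% interval from limma as bars, 4 arrays a group. Vav3 stands at 1.35 on the right, Vav1 at -0.85 and Sh2d2a at -0.57 on the left, and the intervals of 26 members include 0.

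Vav proteins are guanine nucleotide exchange factors that tie the receptor to the actin skeleton and to calcium flux. Vav1 is the form of blood cells and the main one in T cells, and Vav3 is a relative with overlapping activity that is also used in B cells. Vav3 had log2 intensities of 8.01, 7.58, 7.97 and 7.62 in CD44hi replicates 1 to 4, against 6.34, 6.44, 6.49 and 6.53 in CD44lo replicates 1 to 4. Every CD44hi array was more than a full unit above every CD44lo array. All lay above the bacterial range, the CD44lo arrays not far above its upper end of 5.86. The mean was 7.80 ± 0.22 in CD44hi and 6.45 ± 0.09 in CD44lo (SD, 4 arrays a group), a 2.54-fold rise (log2 difference 1.35, SE 0.12, limma adjusted p = 0.000211). Vav1 moved the other way. It had 10.06, 10.28, 10.21 and 10.85 in CD44hi, against 11.11, 11.20, 11.12 and 11.35 in CD44lo. The groups did not overlap, and CD44hi replicate 4 came nearest to the CD44lo arrays. The mean was 10.35 ± 0.34 in CD44hi and 11.20 ± 0.11 in CD44lo, a log2 difference of -0.85 (SE 0.16, limma adjusted p = 0.0197), or 1.80-fold higher in CD44lo. Vav2, the broadly expressed relative, was at 5.91 ± 0.17 in CD44hi and 5.95 ± 0.15 in CD44lo (SD, 4 arrays a group), near the upper end of the bacterial range, and was not called.

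The rise of Vav3 was called under all 20 alternatives in which it was measured, with a difference of 0.98 to 1.58. Its 3 probe sets differed by 1.35, 1.37 and 0.21. That with 1.37 had means of 6.41 in CD44hi and 5.03 in CD44lo, the latter within the bacterial range. That with 0.21 had means of 4.72 in CD44hi and 4.51 in CD44lo, both within the range. Vav1 has a single probe set. It kept its direction in all 21 alternatives, at -1.01 to -0.71, and lost the call without CD44hi replicate 2 or 3 or without CD44lo replicate 1, 2, 3 or 4 (limma adjusted p from 0.0504 to 0.0717) and in arrays numbered 2 and 4 alone (0.141). Since Vav3 is also a B cell gene, the 10 measured B cell markers are given beside it. Ms4a1 (CD20) had 4.39, 5.33, 4.25 and 6.01 in CD44hi, against 3.71, 3.94, 3.63 and 3.45 in CD44lo, and did not pass (limma adjusted p = 0.0961). For this gene only CD44hi replicate 4 lay above the bacterial range. Cd79a had means of 5.32 in CD44hi and 5.49 in CD44lo, and Cd79b of 4.96 in CD44hi against 4.75 in CD44lo. The other markers differed, CD44hi minus CD44lo, by 0.35 (Cr2), 0.16 (Blnk), 0.07 (Pax5), -0.02 (Syk), -0.06 (Blk), -0.16 (Cd22) and -0.22 (Btk). None of the 10 was called. Ebf1, a transcription factor of early B cells, had 11.59, 12.43, 11.47 and 12.07 in CD44hi, against 4.21, 5.68, 5.42 and 5.91 in CD44lo, a difference of 6.59 (exact two-sided permutation p = 0.0286). Gata3, which codes for a GATA factor, differed the other way. It was at 6.21 ± 0.06 in CD44hi and 9.78 ± 0.32 in CD44lo (exact two-sided permutation p = 0.0286). The part of these genes in the rise of Vav3 was not tested.

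The sequences before the starts of these genes are shown because the pair was called in opposite directions. Both are the 250 bases upstream of a RefSeq start (GRCm38.p6, plus strand), for Vav3 the first of its 3 listed starts, at chr3:109340433-109340682, and for Vav1 its one listed start, at chr17:57278850-57279099. Capitals mark the ETS core GGAA on either strand and the palindrome CCCNNGGG, the half-sites of EBF factors.
Vav3: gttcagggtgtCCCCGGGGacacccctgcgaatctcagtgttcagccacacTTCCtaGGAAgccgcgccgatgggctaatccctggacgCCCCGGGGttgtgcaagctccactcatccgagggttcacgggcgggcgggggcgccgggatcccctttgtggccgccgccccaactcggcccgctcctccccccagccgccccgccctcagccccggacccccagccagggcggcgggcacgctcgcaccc
Vav1: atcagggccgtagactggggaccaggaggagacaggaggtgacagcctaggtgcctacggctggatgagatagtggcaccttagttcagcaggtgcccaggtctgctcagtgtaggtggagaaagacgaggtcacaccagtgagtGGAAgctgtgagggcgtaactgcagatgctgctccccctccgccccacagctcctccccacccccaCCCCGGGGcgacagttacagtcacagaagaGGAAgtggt
Both windows held 2 matches to the ETS core, which does not set them apart, since 93.4% of the 32851 windows of this length in the table hold one. The palindrome was found at 2 places before Vav3 and at 1 place before Vav1, and 11.8% of all windows hold one. None of 4 other motifs, searched on both strands, was in either window. These were TGTGGT for RUNX factors, held by 14.0% of all windows, and GATAA for GATA factors, held by 22.6%. The others were GGAAA for NFAT, which contains the ETS core and is held by 55.6%, and the E-box CAGCTG, held by 13.0%. A match describes the letters only, and the arrays measured no binding. The part of any of these motifs in the levels of Vav3 or Vav1 was not tested.

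Among the adaptors Sh2d2a fell and the central scaffold genes did not pass. Sh2d2a codes for TSAd, a T cell adaptor that binds the kinase LCK. It had 12.22, 12.27, 12.25 and 12.36 in CD44hi, against 12.62, 13.03, 12.65 and 13.09 in CD44lo. The CD44hi arrays lay close together, below all CD44lo arrays, and among the CD44lo arrays replicates 2 and 4 were the highest. The log2 difference was -0.57 (SE 0.12, limma adjusted p = 0.0351), 1.49-fold higher in CD44lo. The call was lost without CD44hi replicate 1, 2, 3 or 4 or CD44lo replicate 2 or 4 (limma adjusted p from 0.0546 to 0.108), and with arrays averaged within a number set (1 and 3, 2 and 4) and the set as a block (0.119). The direction was kept in all 21 alternatives, at -0.74 to -0.40.

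Nck1, an adaptor that links the receptor to actin through WASP, had 10.03, 10.37, 10.13 and 10.01 in CD44hi, against 10.55, 10.67, 10.45 and 10.40 in CD44lo. All CD44hi values were below all CD44lo values, by little at the nearest arrays. The log2 difference was -0.38 (SE 0.10), with a limma adjusted p of 0.0962, or 0.0279 with the replicate block. It also passed without CD44hi replicate 2 (limma adjusted p = 0.0371), and in 7 of 21 alternatives in all. It did not pass with averaged arrays and the number set as a block (0.170) or in numbers 2 and 4 alone (0.405). Its other probe set differed by more, at 7.97 in CD44hi and 8.71 in CD44lo (log2 difference -0.74, limma adjusted p = 0.0025 when all probe sets were fitted). Both probe sets gave the same direction, with different sizes.

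Lat, the membrane scaffold, had 13.23, 13.59, 13.22 and 13.43 in CD44hi, against 13.31, 13.37, 13.31 and 13.33 in CD44lo, and the groups overlapped. Lcp2, which codes for SLP-76, was at 12.61 ± 0.22 in CD44hi and 12.48 ± 0.12 in CD44lo (SD, 4 arrays a group). Grb2, the adaptor that brings SOS to LAT, was at 12.27 ± 0.25 in CD44hi, against 12.30 ± 0.09 in CD44lo. The differences were 0.04, 0.13 and -0.04 with 95% intervals of -0.18 to 0.25, -0.14 to 0.40 and -0.32 to 0.25. The other probe set of Lcp2 differed by 0.24 (95% interval 0.03 to 0.46). It was not called (limma adjusted p = 0.328 when all probe sets were fitted). Grap2 (GADS), which joins SLP-76 to LAT, was near the bacterial range, at 6.33 ± 0.24 in CD44hi, against 6.10 ± 0.19 in CD44lo.

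None of the 5 kinase genes was called in the fit over all genes, against 3.81% of all genes (1, Zap70, had an unadjusted p under 0.05). Zap70, the kinase that docks on the CD3 chains, had 11.71, 11.60, 11.68 and 11.82 in CD44hi, against 11.82, 12.47, 11.95 and 12.39 in CD44lo. CD44lo replicates 2 and 4 were the high arrays, and the nearest values of the groups were almost equal. The log2 difference was -0.45 (SE 0.15, limma adjusted p = 0.183, or 0.112 with the replicate block). The second probe set differed by -0.45 as well, with a 95% interval of -1.01 to 0.11. It was not called (limma adjusted p = 0.572 when all probe sets were fitted). The probe set of highest mean passed with the number sets (1 and 3, 2 and 4) as a block (limma adjusted p = 0.0458). It also passed in numbers 2 and 4 alone, at -0.72 (0.0355). Fyn, a Src family kinase of the receptor, was at 13.02 ± 0.19 in CD44hi and 13.14 ± 0.21 in CD44lo, a difference of -0.12 (95% interval -0.42 to 0.17). Csk, which inhibits Src family kinases, was at 10.52 ± 0.20 in CD44hi, against 10.64 ± 0.04 in CD44lo. Prkcq, protein kinase C theta, lay between 5.50 and 5.94 on all arrays, at the upper end of the bacterial range. Txk, a Tec family kinase, was within that range at 4.32 ± 0.24 in CD44hi and 4.10 ± 0.18 in CD44lo.

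The 4 surface receptors were near or within the bacterial range in both subpopulations. Cd5, an inhibitory receptor that most T cells carry, had 4.29, 4.36, 4.41 and 4.21 in CD44hi, against 4.48, 4.15, 4.34 and 4.20 in CD44lo. Thy1, the classical mouse T cell surface marker, had 4.50, 4.34, 4.44 and 4.60 in CD44hi, against 4.54, 4.46, 4.60 and 4.61 in CD44lo. Neither gene exceeded the bacterial range on any array, and each has a single probe set here. Cd2, an adhesion and costimulatory receptor, had 5.49, 6.10, 6.01 and 6.09 in CD44hi, against 5.59, 5.73, 5.74 and 5.66 in CD44lo. Its difference of 0.24 did not pass (limma adjusted p = 0.573), and without CD44hi replicate 1, the low array, it was 0.39 and passed (0.0457). Cd6, a relative of Cd5, was at 5.89 ± 0.35 in CD44hi and 5.70 ± 0.16 in CD44lo. A low signal from one probe set does not show that a transcript is absent.

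The remaining effectors gave no call. Rasgrp1, the diacylglycerol-driven Ras exchange factor of T cells, lay within the bacterial range, at 5.16 ± 0.18 in CD44hi and 5.10 ± 0.16 in CD44lo. Sos1, the Ras exchange factor that GRB2 carries, was at 7.04 ± 0.02 in CD44hi, against 7.03 ± 0.08 in CD44lo. Plcg1, phospholipase C gamma 1, which makes the second messengers of the pathway, was at 6.52 ± 0.16 in CD44hi, against 6.32 ± 0.18 in CD44lo. Was, the actin regulator WASP, was at 10.58 ± 0.08 in CD44hi, against 10.65 ± 0.08 in CD44lo. Cbl, a ubiquitin ligase that removes active receptor complexes, was at 10.79 ± 0.28 in CD44hi, against 10.97 ± 0.23 in CD44lo. Bcl10, which carries the signal to NF-kappaB, was at 12.06 ± 0.23 in CD44hi, against 12.24 ± 0.14 in CD44lo. Over the probe sets of highest mean of these 6 genes the limma adjusted p was 0.586 or above. The 95% intervals of their differences lay between -0.55 and 0.46. Other probe sets reached further, that of Sos1 at 0.38 (95% interval -0.04 to 0.80) and that of Bcl10 at -0.24 (-0.67 to 0.18). Neither was called (limma adjusted p = 0.490 and 0.747 when all probe sets were fitted).

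Of the NFAT and calcineurin genes limma called 0, against 3.81% of all genes (1, Ppp3ca, had an unadjusted p under 0.05). Nfatc1, which codes for an NFAT factor that the pathway itself induces, had 10.09, 8.90, 10.26 and 9.48 in CD44hi, against 10.08, 10.36, 10.23 and 10.19 in CD44lo. CD44hi replicates 2 and 4 were the low arrays, and replicates 1 and 3 were level with CD44lo. The SD was 0.62 in CD44hi, the widest of any member, and 0.11 in CD44lo, and the difference of -0.53 did not pass (limma adjusted p = 0.488). It was -0.27 without CD44hi replicate 2 and -0.17 with array weights, and in numbers 2 and 4 alone it was -1.09 and passed (0.0469). Ppp3ca, the alpha catalytic subunit of calcineurin, had 11.71, 11.92, 11.79 and 12.03 in CD44hi, against 11.38, 11.75, 11.39 and 11.67 in CD44lo. It was higher in CD44hi at each of the 4 replicate numbers, by 0.17 to 0.40, although the groups overlapped. The difference of 0.31 (SE 0.12) had a limma adjusted p of 0.255, or 0.0560 with the replicate block, and the 3 probe sets differed by 0.28 to 0.39. It passed with the number sets as a block (0.0161) and in numbers 1 and 3 alone (0.0499). Ppp3cb, the beta subunit, had 10.59, 10.66, 10.58 and 10.50 in CD44hi, against 10.86, 10.19, 10.78 and 10.18 in CD44lo. Its CD44lo values formed a high pair, replicates 1 and 3, and a low pair, replicates 2 and 4, with the CD44hi values between them. Nfatc3, the other NFAT gene well above the bacterial range, was at 11.93 ± 0.06 in CD44hi and 12.05 ± 0.09 in CD44lo, and Nfatc2 at 6.68 ± 0.11 in CD44hi, against 6.61 ± 0.07 in CD44lo.

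**Figure D3:**
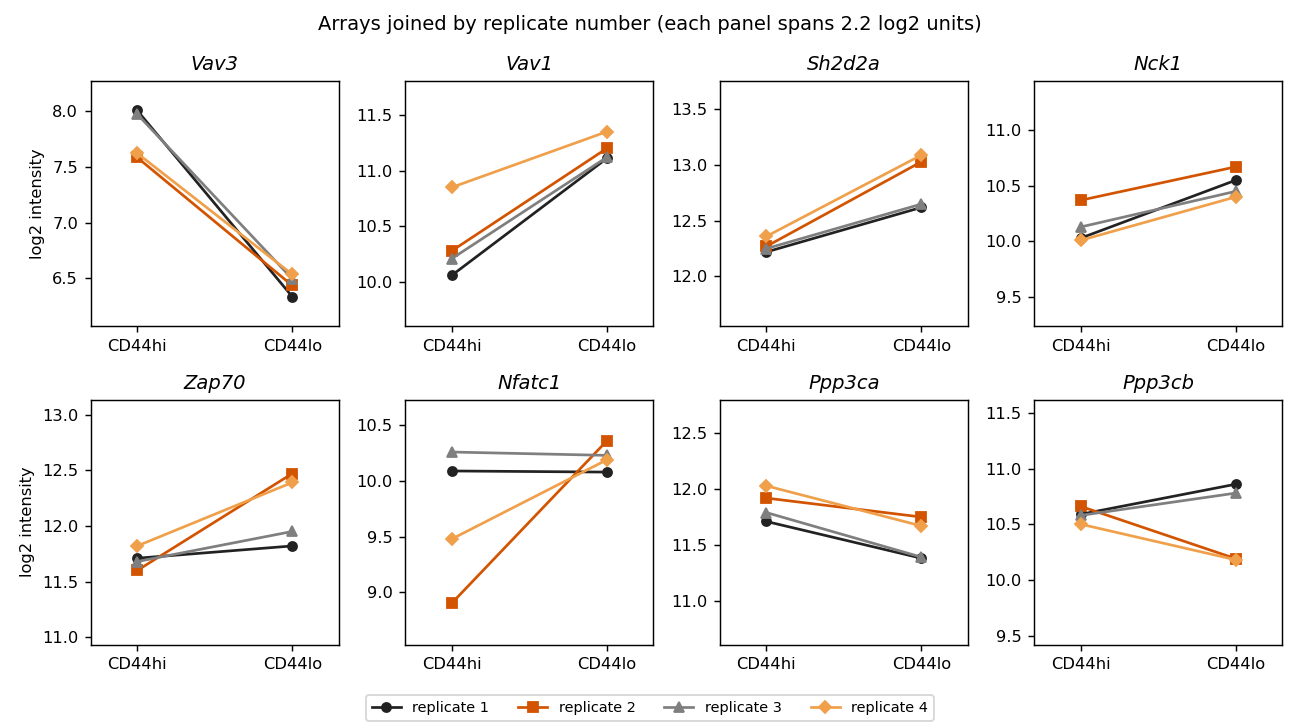
Log2 intensity (y axis) of 8 members in CD44hi (left of each panel) and CD44lo (right), with a line joining the arrays that share a replicate number. All 4 lines fall to the right for Vav3 and Ppp3ca and climb for Vav1, Sh2d2a, Nck1 and Zap70, while for Nfatc1 and Ppp3cb the lines of replicates 2 and 4 run apart from those of 1 and 3.

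By replicate number, 3 members were higher in CD44hi at all 4 numbers and 9 were lower at all 4, together 37.5% of the members, against 28.5% of all genes. Those always higher were Vav3, Ppp3ca and Prkcq, the last by as little as 0.02. Arrays numbered 1 and 3 resemble each other across all genes, as do those numbered 2 and 4, and the labels give no reason for it. The size of the group difference by number set was as follows for the members where it varied most. Nfatc1 differed by 0.02 over numbers 1 and 3 and by -1.09 over numbers 2 and 4, and Ppp3cb by -0.24 over numbers 1 and 3 and 0.40 over 2 and 4. In the same order of number sets, Zap70 differed by -0.19 and -0.72, Sh2d2a by -0.40 and -0.74, and Vav3 by 1.58 and 1.12. In the limma interaction of group with number set 0 members passed, against 1.52% of all genes, and these 5 had an unadjusted p under 0.05. For the interaction too, the share of all genes under that unadjusted limit is not given here. The lowest adjusted p was 0.0624, for Ppp3cb. The myeloid marker Cd68 varied with the same sets, with 8.01, 10.23, 8.20 and 10.29 in CD44hi, against 8.20, 9.75, 8.23 and 9.77 in CD44lo, while 6 of the 8 measured myeloid genes stayed in the bacterial range, and its part in these differences was not tested. Without CD44hi replicate 4 both Ppp3cb and Nfatc1 passed (limma adjusted p = 0.0316 and 0.0208).

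**Figure D4:**
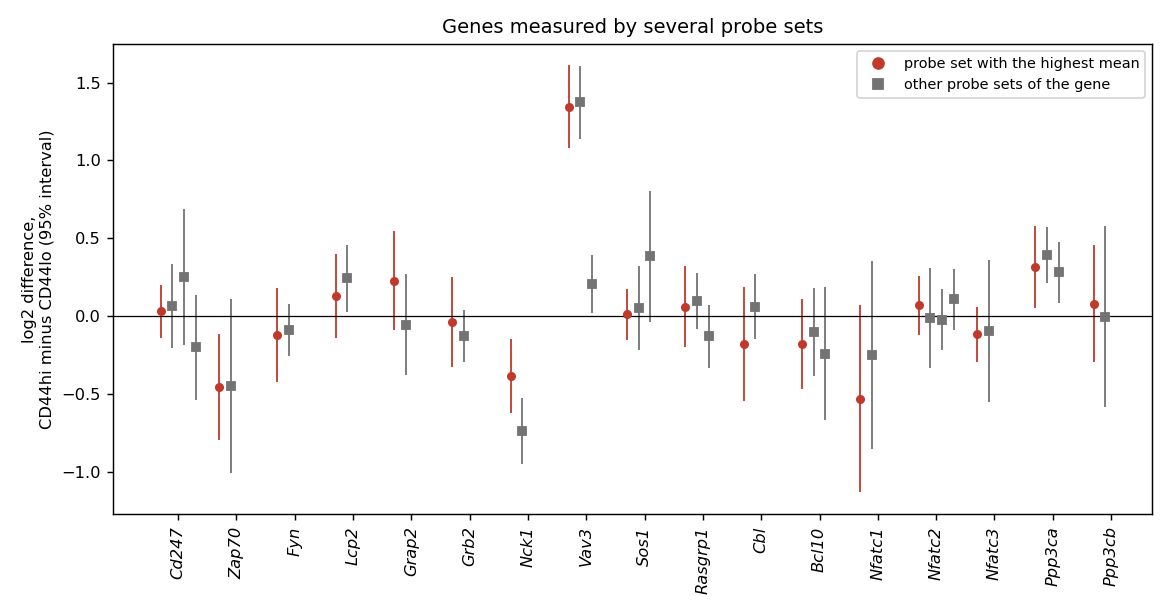
Difference in log2 intensity, CD44hi minus CD44lo (y axis, with 95% intervals from limma over all probe sets), for each probe set of the 17 members measured by several. The red point of each gene is the probe set with the highest mean, used in the text; Vav3, Nck1 and Ppp3ca have probe sets that keep 1 sign, with sizes that vary from 0.21 to 1.37, -0.38 to -0.74 and 0.28 to 0.39.

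The members had 58 probe sets in all, and 17 members had several. In 11 of the 17 all probe sets had the same sign. When every probe set was tested on its own, 6 of the 58 were called, against 3.07% of all 20380 probe sets: 2 of Vav3 and 1 each of Vav1, Sh2d2a, Nck1 and Ppp3ca. The called probe set of Ppp3ca differed by 0.39 (limma adjusted p = 0.0318) and is not the one with the highest mean.

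Other genes of the pathway were read from the same fit. Of 115 measured genes in 7 lists, members left out, 0 rose and 1 fell, or 0.870%, against 3.81% of all genes. With the replicate block 3 were called, or 2.61%, against 6.19% of all genes. Their median difference was -0.03. The gene that fell was Ptpn6, which codes for SHP-1, a phosphatase that opposes receptor signalling. It had 10.25, 10.07, 10.30 and 10.48 in CD44hi, against 11.00, 10.84, 10.95 and 10.82 in CD44lo. The groups were well apart, with a log2 difference of -0.63 (SE 0.10, limma adjusted p = 0.0080). Among the other 26 measured negative regulators, Dgka, a kinase that removes diacylglycerol, was at 9.74 ± 0.38 in CD44hi and 10.26 ± 0.18 in CD44lo and passed with the replicate block alone (limma adjusted p = 0.0378, against 0.231 without it).

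Of 22 measured genes that receptor signalling induces, the member Nfatc1 among them, limma called 0, against 3.81% of all genes. A list of this size is too short to set 0 calls apart from that share. An unadjusted p under 0.05 was reached by 2 of them, Ifng and Egr1. The median difference of the 22 was 0.02. Ifng, interferon gamma, had 12.35, 12.93, 12.33 and 12.95 in CD44hi, against 11.94, 12.21, 11.93 and 12.12 in CD44lo, a difference of 0.59 (limma adjusted p = 0.108, or 0.0179 with the replicate block). Egr1, an immediate-early transcription factor, had 11.97, 11.19, 12.07 and 11.19 in CD44hi, against 12.15, 12.33, 12.17 and 12.19 in CD44lo, a difference of -0.61 (limma adjusted p = 0.211). Both were farther from CD44lo on CD44hi replicates 2 and 4 than on 1 and 3. The receptor target Irf4 was at 13.77 in CD44hi and 13.76 in CD44lo, while Il2ra was at 4.26 in CD44hi and 4.32 in CD44lo, within the bacterial range.

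The coreceptor gene Cd8a was at 13.86 in CD44hi and 13.87 in CD44lo, its partner Cd8b1 at 13.53 in CD44hi against 13.51 in CD44lo, and the costimulatory receptor Cd28 at 12.81 ± 0.17 in CD44hi, against 13.06 ± 0.09 in CD44lo (limma adjusted p = 0.321). Of 24 other proximal adaptors and kinases 0 were called, against 3.81% of all genes (1 with an unadjusted p under 0.05). The nearest was Pstpip1, an adaptor that binds WASP, at 11.35 ± 0.07 in CD44hi and 11.75 ± 0.21 in CD44lo (limma adjusted p = 0.103). The calcium, Ras and MAP kinase, and CARMA1 and IKK lists had 14, 14 and 10 measured genes. Each had 0 calls in limma, against the same 3.81%, with 0, 0 and 1 genes at an unadjusted p under 0.05. Lists this short cannot set 0 calls apart from that share. Their differences reached from -0.44 to 0.31, with medians of 0.03, -0.02 and -0.06.

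**Figure D5:**
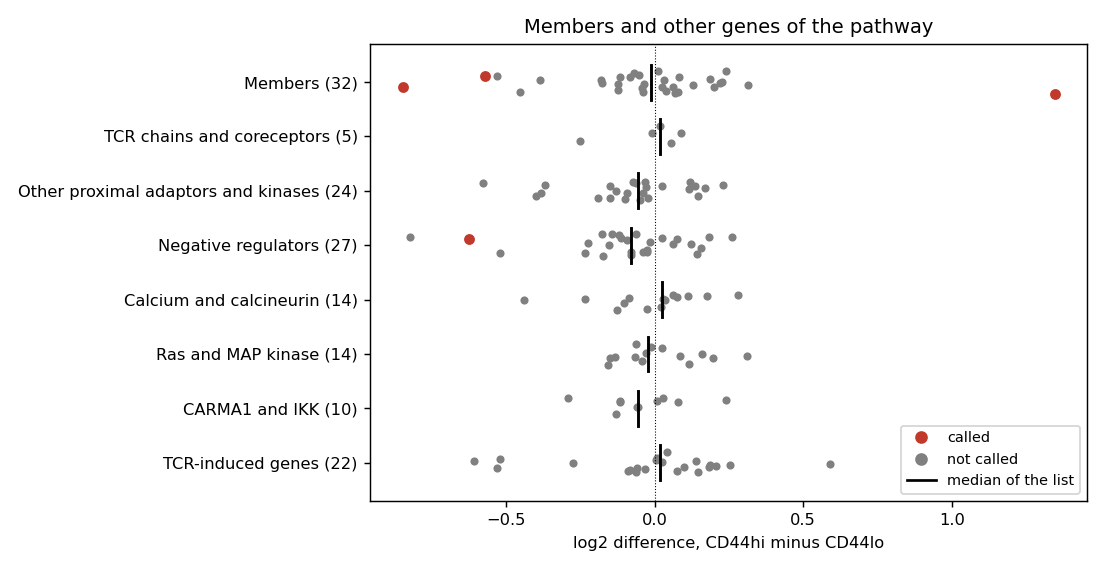
Difference in log2 intensity, CD44hi minus CD44lo (x axis), of each measured gene in the member list and in 7 other lists of the pathway; red points were called, grey points were not, and the black bar is the median of a list. Outside the members, Ptpn6 at -0.63 among the negative regulators is the single red point, and all medians lie between -0.08 and 0.03. Nfatc1 is drawn both among the members and among the genes that receptor signalling induces.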

How the data were processed

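RNA of 8 samples was measured on 1-colour Affymetrix Mouse 430A 2.0 arrays, and each array's group and replicate number came from its title. The authors deposited probe set intensities made with Robust Multichip Average, per the labels' protocols; its version and options, and a genome build, were not given in the sources used here. The values run from 7.61 to 36128, which is a linear scale, and each intensity was turned into log2 without adding a pseudocount. Genes were named from the platform annotation, by probe sets with 1 symbol (20380 of 22690), and among several probe sets of a gene the one of highest mean was used.

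CD44hi and CD44lo were compared in R 4.3.3 with limma 3.58.1 (lmFit, then eBayes), without a covariate, with Benjamini-Hochberg adjustment over all 12393 genes; the fit was tested on simulated data. Intervals are limma's 95% intervals, unadjusted. The members, lists and number sets were chosen with earlier results of these data known. The text names every measured member, called genes of the other lists and up to 3 more per list by smallest p. Cd44, Ebf1, Gata3, Irf4, Il2ra, Vav2, the receptor segments and the markers given by name lie outside that rule. They were picked with their values in view.

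Groups share replicate numbers of unstated meaning. After group means were subtracted, the CD44hi and CD44lo arrays of numbers 1, 2, 3 and 4 correlated over all genes at 0.574, 0.404, 0.533 and 0.531. All exceed 0.1, the limit set, so a fit with the replicate number as a block was added beside the main fit. Its values stand where they change a call. Arrays of unlike number within a set also correlated, CD44hi 1 with CD44lo 3 at 0.521 and CD44hi 3 with CD44lo 1 at 0.471. CD44hi 2 with CD44lo 4 gave 0.372, and CD44hi 4 with CD44lo 2 gave 0.458. These values cannot tell pairs by number from the sets 1 and 3, 2 and 4. Alternatives were other centring, normalization, filters, probe sets, variance models, blocks, number sets, thresholds and leaving out each array.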

Additional observations from a re-analysis of the deposited data

Results flagged for a closer look

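In 5 of 64 groups of 4 values (32 members in each of CD44hi and CD44lo) 1 array lay far from the other 3 by Dixon's ratio. Chance gives about 1 in 20 for independent values. CD44lo replicate 4 gave 14.21 for Cd3d, while its fellow arrays gave 14.17 to 14.18. CD44hi replicate 4 gave 13.89 for Cd3g, where the rest of CD44hi gave 13.96. CD44hi replicate 1 was low for Cd2, with 5.49 beside 6.01 to 6.10. It was high for Txk, with 4.68 beside 4.17 to 4.24, and all Txk values lay within the bacterial control range. CD44lo replicate 2 gave 5.82 for Grap2, where the rest of CD44lo gave 6.18 to 6.21. None of these 5 genes was called between the groups.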

How the results depend on the processing

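With 4 arrays a group, the number of arrays limits the precision, and 8 members near or within the bacterial control range are poorly measured. Of 656 values of single members under alternatives, 14 lost a call, 13 gained one and the other 629 did neither; the cause was not tested. Of the 629, 29 had the opposite sign, in 12 members not called in either fit, among them Nfatc1 at 0.02 and Ppp3cb at -0.24 in numbers 1 and 3 alone. No call changed sign. Over all genes, 252 higher and 220 lower in CD44hi became 382 and 385 with the replicate block, 403 and 418 with array weights, 522 and 544 with the number sets (1 and 3, 2 and 4) as a block, and 422 and 450 in numbers 1 and 3 alone. They became 167 and 116 with arrays averaged within a number set and the set as a block, 102 and 113 among genes above the median level, 108 and 68 when a difference of 1 or more (log2) was also asked for, and 141 and 100 when the adjusted p had to be under 0.01. Leaving out 1 array gave 127 to 226 lower. Members higher in CD44hi (1) became 2 with the number-set block and in numbers 1 and 3 alone, 0 above the median level, which leaves out Vav3, and 1 to 2 without 1 array. Members lower (2) became 4 with the number-set block. They became 3 with the mean of all probe sets, the probe set of largest variance and array weights. The replicate block and either number set alone gave 3 as well. Members lower became 1 with averaged arrays, 0 under either of these stricter limits, and 0 to 1 without 1 array. The replicate block changed no member's call other than that of Nck1. Members whose difference varied between number sets (0) became 1 above the 25th percentile, 1 above the median level and 1 with the mean of all probe sets, 2 with trended robust eBayes, and 0 to 2 without 1 array.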
